A study of Danio rerio with 12 samples.

Results

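Hedgehog signalling in the zebrafish embryo was followed through 9 genes: the ligands shha, shhb and ihhb, the receptor ptch1, the decoy hhip, the transducer smo and the transcription factors gli1, gli2a and gli3. They were taken by symbol from a table of 31901 genes, where they fill 10 rows because ptch1 is listed under 2 gene IDs. RNA came from whole wild-type embryos kept in solution between 6 and 24 hours post-fertilisation (hpf). The vehicle group was held in 0.1% DMSO, a further group in 75 µM GW9662, and the last in 25 µM rosiglitazone, with 4 libraries in each group. GW9662 blocks the nuclear receptor PPARγ irreversibly, rosiglitazone activates it, and their doses differ. Groups follow the sample titles, because a separate treatment tag contradicts them, naming TBBPA where the title gives GW9662 and DMSO where it gives rosiglitazone. A batch tag gives each library an hour of its own, from 24 to 35 hpf in the order of the groups, so this tag and the group cannot be told apart.

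Fragments assigned to genes numbered between 12772174 and 22746500 per library. Whether replicates were separate clutches is not stated, so p-values cover only the spread between these libraries, which may be technical. Of 8 markers of a whole embryo at this age, 7 were matched and stood at 9.77 FPKM or more in every library. FPKM counts the fragments of a gene per kilobase of its length, scaled to the size of the library, so that genes of different length can be compared.

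Hedgehog ligands are secreted by the notochord and the floor plate, the midline tissues under and in the base of the neural tube. Without ligand, the receptor Patched holds Smoothened inactive and Gli proteins are cut into repressors. Once a ligand binds Patched, Smoothened enters the primary cilium and full-length Gli proteins activate their targets. Among these targets are gli1, ptch1 and hhip, so their transcripts are commonly read as a gauge of the pathway. In the zebrafish trunk the signal specifies slow muscle fibres and the ventral cell types of the neural tube.

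Of the pathway core, the transcripts of the ligand ihhb and the factor gli2a passed the test against vehicle. The ihhb transcript rose 1.55-fold with GW9662 and 1.45-fold with rosiglitazone, and gli2a rose 1.23-fold with rosiglitazone. The receptor ptch1, the decoy hhip and the target gli1 passed the test in neither compound. Folds were taken after adding 0.5 to each FPKM value, so they are too small for genes of low level. The test was limma on log2 values with Benjamini-Hochberg adjustment over 14433 genes. With GW9662, 1 of 9 genes passed an adjusted p of 0.05, where 36% of all genes tested passed, 18.9% higher and 17.1% lower. With rosiglitazone 2 of 9 passed, both higher, where 17% of all genes did, 9.29% higher and 7.68% lower. Between the compounds limma called 0 of 9, where 30.5% of all genes were called, 16% higher and 14.5% lower with GW9662. An unadjusted p under 0.05 was reached by 2 of 9 with GW9662, 2 of 9 with rosiglitazone and 1 of 9 between the compounds, where 44.8%, 29.4% and 40.3% of all genes reached it. A limma voom fit on fragments, an alternative test, also called 0 of 9 between the compounds, with gli3 just short of the threshold (adjusted p = 0.0501). The median log2 change of the 9 genes was 0.09 with GW9662 and 0.09 with rosiglitazone, beside 0.01 and 0.00081 over all genes tested.

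**Figure D1:**
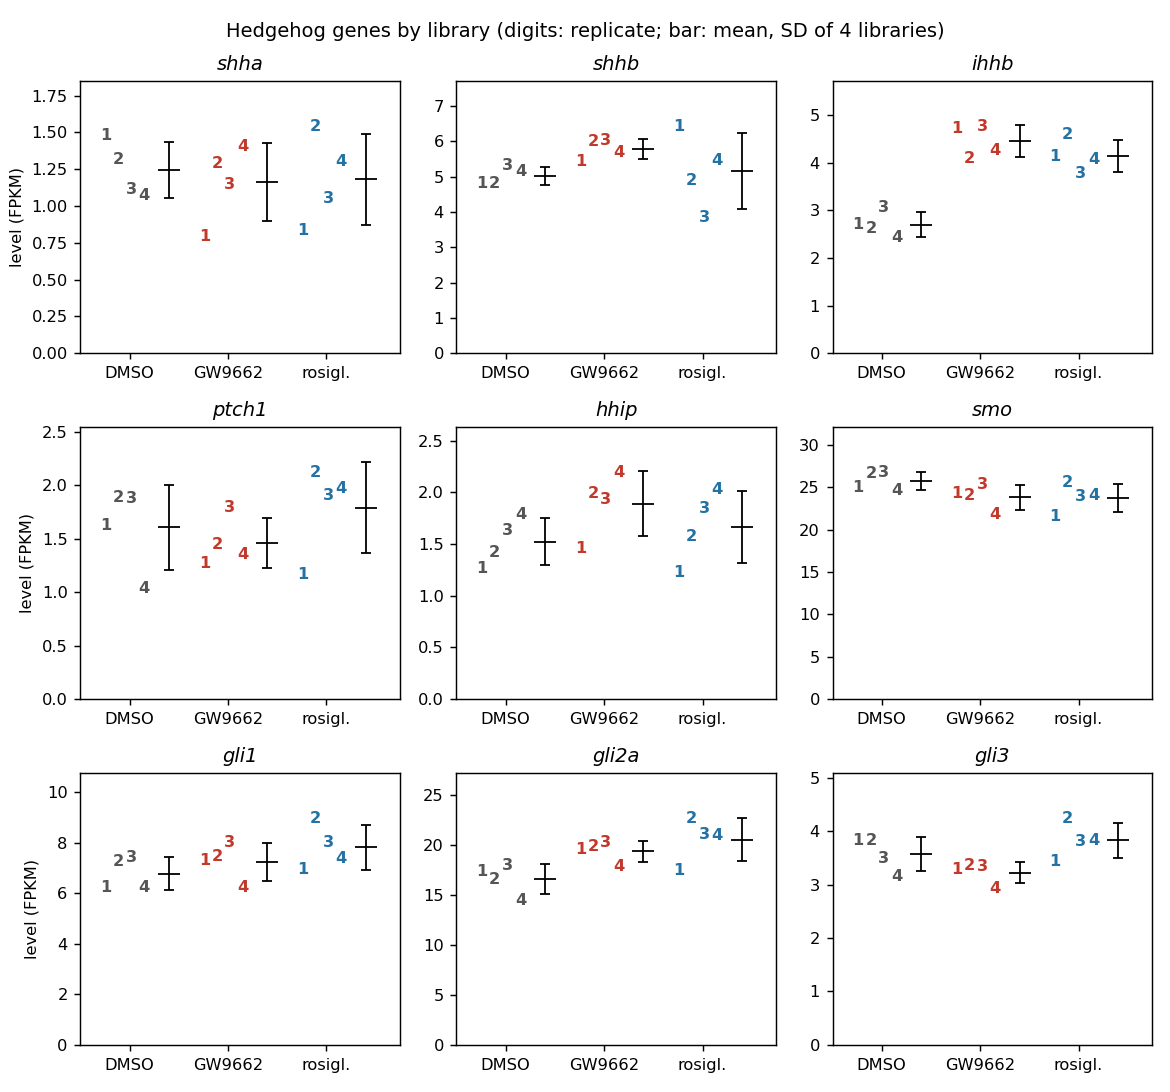
Level in FPKM (vertical axis, from 0) of each of the 9 genes in the 12 libraries, by group. Digits are the replicates and the bar with whiskers is the mean with the SD of 4 libraries; for ihhb the 4 GW9662 and 4 rosiglitazone libraries all lie above the 4 DMSO libraries, and for ptch1 the 3 groups overlap.

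Among the ligands, ihhb gave the clearest difference. It encodes an Indian hedgehog, first described in zebrafish as echidna hedgehog and expressed in the notochord (ENSDARG00000058815, chromosome 6, 7059999 to 7082108, minus strand). Its level in DMSO replicates 1 to 4 was 2.7, 2.62, 3.05 and 2.43 FPKM. In GW9662 it was 4.72, 4.08, 4.76 and 4.24 FPKM, and in rosiglitazone 4.13, 4.58, 3.77 and 4.07 FPKM. The lowest treated library stood above the highest DMSO library with both compounds. The log2 change was 0.63 ± 0.0869 (SE) with GW9662 (limma adjusted p = 8.71e-05) and 0.54 ± 0.0869 with rosiglitazone (limma adjusted p = 0.000976), higher in 4 of 4 libraries each time. These values rest on 72 to 84 fragments per DMSO library and 107 to 197 per treated library. Between the compounds ihhb differed by a log2 of 0.10, with a 95% interval from -0.09 to 0.28. Both comparisons share the DMSO libraries.

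Groups did not overlap for ihhb with both compounds and for shhb with GW9662. That makes 2 of 9 genes wholly higher and none wholly lower with GW9662, where 37% of all genes tested did not overlap, 19.4% being higher and 17.5% lower. With rosiglitazone 1 of 9 was wholly higher and none wholly lower, where 20.5% did not overlap, 10.9% being higher and 9.6% lower. The shhb gene, first described as tiggy-winkle hedgehog and expressed in the floor plate, lies on chromosome 2 (ENSDARG00000038867, 30050541 to 30055432, minus strand). It stood at 4.81, 4.80, 5.32 and 5.15 FPKM in DMSO and at 5.41, 6.00, 6.01 and 5.69 in GW9662. Its log2 change with GW9662 was 0.19 ± 0.114 (SE) and did not pass (limma adjusted p = 0.235). The rosiglitazone libraries spread from 3.85 to 6.42 FPKM, on both sides of the DMSO range, and this wide spread enters the shared estimate of error. Fitted without the rosiglitazone libraries, the GW9662 change gave an adjusted p of 0.0575.

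The best known ligand, shha, which patterns the ventral neural tube and the fin bud, was at low level in every group (ENSDARG00000068567, chromosome 7, 40884012 to 40893295, plus strand). DMSO libraries held 1.48, 1.32, 1.11 and 1.07 FPKM, GW9662 libraries 0.796, 1.29, 1.15 and 1.41, and rosiglitazone libraries 0.833, 1.54, 1.05 and 1.30. All 3 groups overlapped. The log2 change was -0.08 with GW9662 (95% interval -0.43 to 0.27, limma adjusted p = 0.745) and -0.07 with rosiglitazone (-0.42 to 0.28, limma adjusted p = 0.838). Each library held 55 to 155 shha fragments, and changes inside these intervals could not be told from none. An antisense transcript overlaps shha and was listed at up to 0.146 FPKM.

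Together with ihha, another Indian hedgehog, and dhh, the desert hedgehog, the ligand transcripts summed to 9.64 to 11.3 FPKM in DMSO, 11.7 to 13.1 in GW9662 and 9.77 to 12.7 in rosiglitazone. GW9662 libraries all lay above the DMSO libraries in this sum, while rosiglitazone libraries overlapped them. The share of ihhb in the sum was 26.6 ± 1.5% in vehicle embryos, against 35.8 ± 3.66% with GW9662 and 35.1 ± 2.68% with rosiglitazone (SD, n = 4). The share of shhb was 49.6 ± 1.83%, 46.3 ± 0.334% and 43.3 ± 5.96%. The largest contributor was thus shhb in each group's mean, followed by ihhb. The dhh gene held 0 to 0.160 FPKM over all libraries. It failed the filter, which asks for 1 FPKM in 4 or more libraries.

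**Figure D2:**
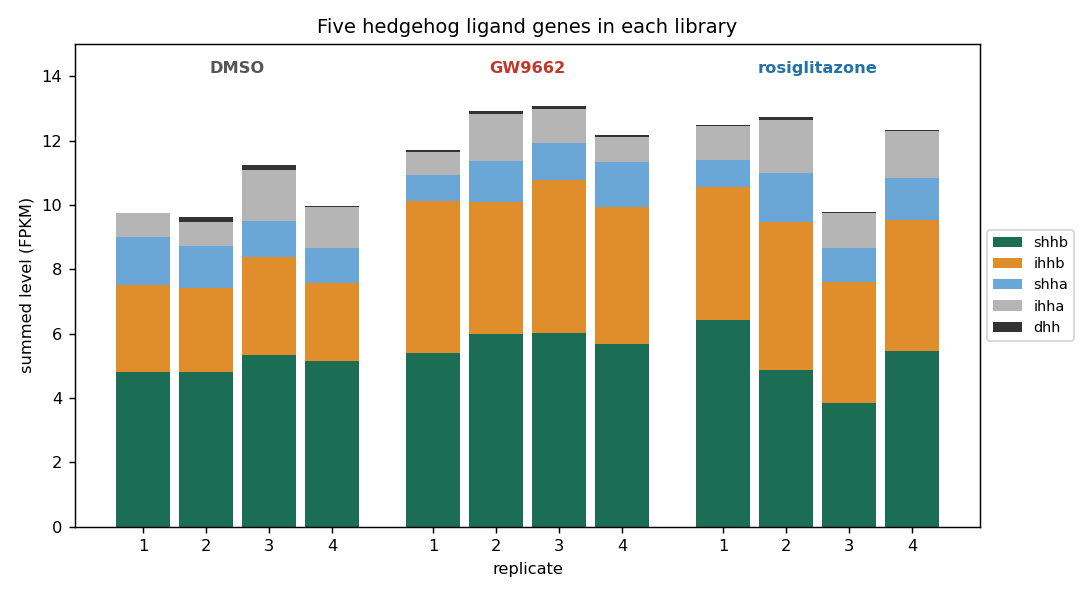
Summed level in FPKM (vertical axis) of the 5 hedgehog ligand genes in each of the 12 libraries, stacked by gene. The ihhb segment is larger in all 8 treated libraries than in the 4 DMSO libraries, and the shha segment is at most 1.54 FPKM.

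The tissues that make these ligands were looked at beside them. In whole embryos, fewer cells of a type and less RNA per cell cannot be told apart. Of 9 notochord genes tested, 1 was higher and 4 were lower with GW9662, and 3 were higher and none lower with rosiglitazone. Shares called were 55.6% and 33.3%, beside 36% and 17% of all genes. With GW9662 the matrix genes epyc and matn4 fell by a log2 of 1.05 and 0.32 and the caveola gene cav1 by 0.53, while ctgfa, for a matricellular growth factor, rose by 0.50. The early notochord factors tbxta and noto, together with loxl5b, were the genes higher with rosiglitazone, by 0.25, 0.60 and 0.41. These 3, and col9a1a, lower by 0.49 with GW9662, were named after their values were seen. The 10 notochord genes summed to 311 to 359 FPKM in DMSO, 294 to 310 in GW9662 and 315 to 353 in rosiglitazone, with col8a1a at 0 in all libraries. The sum in GW9662 lay below that in DMSO by a narrow margin, and abundant genes weigh most in it. Among these was matn4, at 106 ± 4.27 FPKM in DMSO and 85 ± 4.74 in GW9662 (SD, n = 4). The list's median log2 change with GW9662 was 0.03, and noto was at 2.67 ± 0.680 FPKM in DMSO and 2.81 ± 0.655 in GW9662. The part of the tissue in the ihhb change was not tested.

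Of 7 floor plate genes tested, 2 were higher with GW9662, and none passed with rosiglitazone. Shares called were 28.6% and 0%, beside 36% and 17% of all genes. The sulfatase sulf1 rose by a log2 of 0.43 ± 0.0465 and the motile cilium factor foxj1a by 0.45 ± 0.0789 (SE). The spon1b gene was at 11.9 ± 0.738, 10.4 ± 1.69 and 13.7 ± 0.643 FPKM in DMSO, GW9662 and rosiglitazone. In the same order, ntn1b was at 6.41 ± 0.367, 6.40 ± 0.354 and 7.28 ± 0.270 FPKM (SD, n = 4). Both spon1b and ntn1b passed in neither compound. The factor foxa2, which defines the floor plate, differed by 0.02 with GW9662 and -0.09 with rosiglitazone and passed in neither; it was named after its values were seen. Summed over 8 genes, floor plate transcripts held 56.6 to 60.3 FPKM in DMSO, 61.9 to 67.7 in GW9662 and 57.6 to 64.2 in rosiglitazone, with no gene at 0. GW9662 libraries lay above DMSO libraries in this sum, which sulf1 carried, at 14.4 ± 0.492 FPKM in DMSO and 19.7 ± 0.784 in GW9662 (SD, n = 4). Without sulf1, left out after its values were seen, the sum was 42.6 to 46.1 FPKM in DMSO and 41.8 to 48.3 in GW9662, and the groups overlapped. The list's median log2 change was -0.0034 with GW9662 and 0.09 with rosiglitazone. The part of the tissue in the shhb values was not tested.

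The receptor ptch1, which holds Smoothened inactive and is itself a target, lay on chromosome 8 (ENSDARG00000016404, 29962635 to 30068277, plus strand). It stood at 1.63, 1.89, 1.88 and 1.04 FPKM in DMSO, 1.27, 1.44, 1.79 and 1.35 in GW9662 and 1.17, 2.12, 1.90 and 1.98 in rosiglitazone. The groups overlapped, with 1 low library in DMSO and 1 in rosiglitazone. The remaining rosiglitazone libraries lay above every DMSO library. The log2 change was -0.09 ± 0.175 (SE) with GW9662 (95% interval -0.47 to 0.29, limma adjusted p = 0.74) and 0.12 ± 0.175 with rosiglitazone (-0.26 to 0.50, limma adjusted p = 0.703). Without DMSO replicate 4, the low library, the rosiglitazone value was -0.02. Over all alternative fits the rosiglitazone value ran from -0.02 to 0.27. A second ID for ptch1 (ENSDARG00000095859, 29963024 to 29966285), with 361 bases inside the first, was at 0 in all libraries and could not be tested.

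The decoy hhip binds ligand at the cell surface and limits its spread (ENSDARG00000060397, chromosome 1, 35790082 to 35835863, plus strand). It stood at 1.26, 1.42, 1.63 and 1.78 FPKM in DMSO, 1.45, 1.99, 1.93 and 2.2 in GW9662 and 1.22, 1.57, 1.84 and 2.03 in rosiglitazone. The groups overlapped, and the log2 change was 0.24 ± 0.145 (SE) with GW9662 (95% interval -0.08 to 0.55, limma adjusted p = 0.228) and 0.09 ± 0.145 with rosiglitazone (-0.22 to 0.40, limma adjusted p = 0.74).

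Smoothened, the membrane protein that passes the signal inward, had the highest mean level of the 9 genes in each group (smo, ENSDARG00000002952, chromosome 4, 14971239 to 14979937, plus strand). DMSO libraries held 25.0, 26.6, 26.8 and 24.7 FPKM, GW9662 libraries 24.2, 24.0, 25.3 and 21.8, and rosiglitazone libraries 21.6, 25.6, 24.0 and 24.0. The groups overlapped, and the log2 change was -0.11 ± 0.0605 (SE) with each compound (limma adjusted p = 0.177 with GW9662 and 0.24 with rosiglitazone). Its 95% interval was the narrowest of the set, from -0.24 to 0.02 with each. With the dependence on gene length removed in every library, an alternative chosen after seeing the data, the GW9662 value was -0.12 and passed (limma adjusted p = 0.0429).

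**Figure D3:**
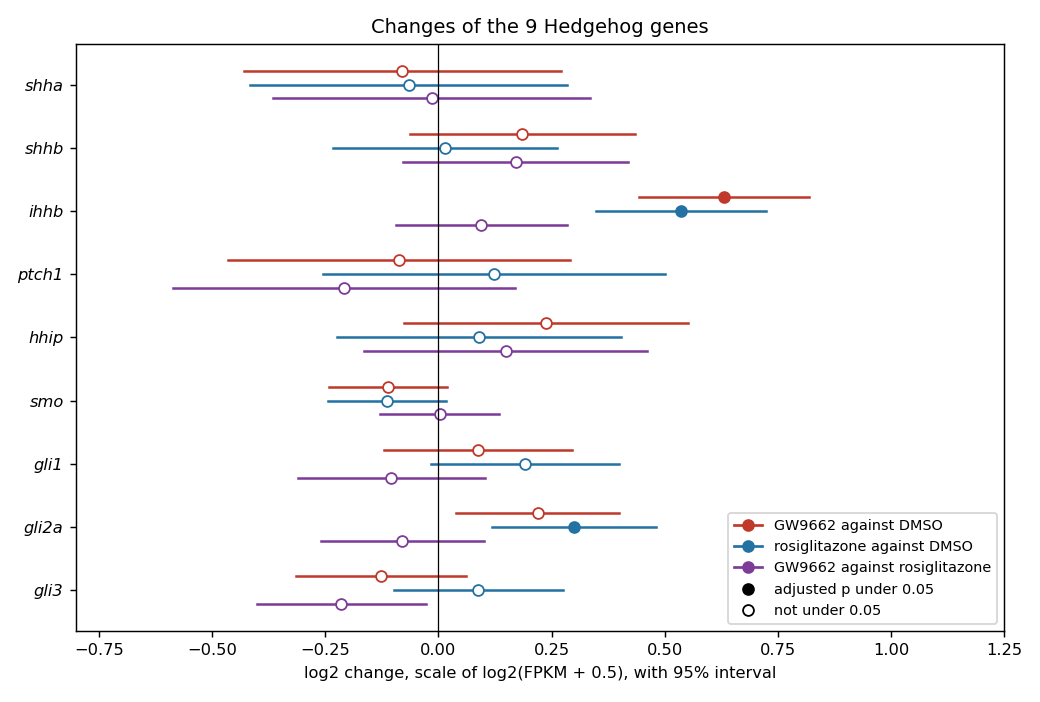
Log2 change (horizontal axis, on the log2(FPKM + 0.5) scale) of each of the 9 genes in 3 comparisons, with 95% intervals from limma; filled points passed an adjusted p of 0.05. Filled are ihhb with both compounds, at 0.63 and 0.54, and gli2a with rosiglitazone, at 0.30.

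The Gli transcription factors carry the signal to the genome. In zebrafish gli1 is a main activator and itself a target (ENSDARG00000101244, chromosome 6, 59426148 to 59505589, minus strand). It held 6.22, 7.26, 7.40 and 6.23 FPKM in DMSO, 7.28, 7.44, 8.0 and 6.22 in GW9662 and 6.95, 8.97, 8.0 and 7.36 in rosiglitazone. The groups overlapped, and the log2 change was 0.09 ± 0.0956 (SE) with GW9662 (limma adjusted p = 0.521) and 0.19 ± 0.0956 with rosiglitazone (95% interval -0.02 to 0.40, limma adjusted p = 0.207).

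The related factor gli2a, which can activate or repress, was called with rosiglitazone but not with GW9662 (ENSDARG00000025641, chromosome 9, 37141836 to 37297485, plus strand). It held 17.4, 16.6, 18.0 and 14.5 FPKM in DMSO, 19.6, 19.9, 20.3 and 17.8 in GW9662 and 17.5, 22.7, 21.1 and 21 in rosiglitazone. In each treated group 3 of 4 libraries lay above every DMSO library and the remaining library lay within the DMSO range. The log2 change was 0.30 ± 0.0835 (SE) with rosiglitazone, which passed (limma adjusted p = 0.0266), and 0.22 ± 0.0835 with GW9662, which did not (limma adjusted p = 0.057). The compounds themselves differed by -0.08, with a 95% interval from -0.26 to 0.10. The rosiglitazone call was lost without DMSO replicate 2 or 4 or rosiglitazone replicate 2, 3 or 4 (limma adjusted p from 0.0588 to 0.0754), with scaling to library totals (0.104) or without the GW9662 libraries (0.0544). The GW9662 change did pass once DMSO replicate 3, GW9662 replicate 4, or rosiglitazone replicate 1 or 2 was left out (limma adjusted p from 0.0232 to 0.0486), or all rosiglitazone libraries were (0.0371). It also passed with a filter at a mean of 5 FPKM (limma adjusted p = 0.0463) and with the dependence on gene length removed (0.0146).

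The factor gli3, known mostly as a repressor, lay on chromosome 24 (ENSDARG00000052131, 11528270 to 11821505, minus strand). It held 3.83, 3.82, 3.49 and 3.15 FPKM in DMSO, 3.28, 3.35, 3.34 and 2.93 in GW9662 and 3.43, 4.25, 3.81 and 3.82 in rosiglitazone. All GW9662 libraries lay below all rosiglitazone libraries, the only gene of the 9 for which these groups did not overlap, where 29.4% of all genes tested did not, 15.4% being higher and 14% lower with GW9662. The log2 difference between the compounds was -0.21 ± 0.0864 (SE) and did not pass (limma adjusted p = 0.0792). It passed without rosiglitazone replicate 1 (limma adjusted p = 0.0467) and with the length dependence removed (0.0403). It fell just short under voom (limma adjusted p = 0.0501), quantile normalization (0.0518) and no variance trend (0.0528). Against DMSO the changes were -0.13 with GW9662 (limma adjusted p = 0.286) and 0.09 with rosiglitazone (limma adjusted p = 0.555).

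In vehicle embryos the levels per length ran from smo at 25.8 ± 1.11 FPKM through gli2a at 16.6 ± 1.55, gli1 at 6.78 ± 0.641, shhb at 5.02 ± 0.262, gli3 at 3.57 ± 0.323 and ihhb at 2.7 ± 0.260 to ptch1 at 1.61 ± 0.398, hhip at 1.52 ± 0.229 and shha at 1.24 ± 0.189 (SD, n = 4). Neighbours in this order did not overlap down to ihhb and ptch1, while ptch1, hhip and shha overlapped each with the next. In rosiglitazone smo and gli2a overlapped as well, at 23.8 ± 1.66 and 20.6 ± 2.2 FPKM. There shhb, at 5.15 ± 1.08 FPKM, also overlapped with ihhb, the next in the order. In GW9662 and rosiglitazone ihhb stood above gli3 in the order of means. The libraries of ihhb and gli3 were apart in GW9662, at 4.45 ± 0.340 and 3.23 ± 0.202 FPKM. In rosiglitazone, at 4.14 ± 0.337 and 3.83 ± 0.333 FPKM, they overlapped.

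The 9 genes tended to be high or low in the same libraries of a group. Rosiglitazone replicate 2 was the highest of its group for 7 of 9 genes and rosiglitazone replicate 1 the lowest for 7 of 9. In DMSO, replicate 4 was the lowest for 6 of 9, and in GW9662 replicate 3 was the highest for 6 of 9. Of the 9 genes, 7 are 4000 bases or longer in the table, and genes of that length leaned the same way. Of the 3405 such genes tested, 41.4% were highest in rosiglitazone replicate 2, 50.2% lowest in rosiglitazone replicate 1, 41.5% lowest in DMSO replicate 4 and 32.7% highest in GW9662 replicate 3. The median deviation of the 9 genes from the group mean ran from -0.15 to 0.14 on the log2 scale, beside -0.06 to 0.05 for the long genes and 0.10 to -0.06 in the same libraries for genes under 1500 bases. These libraries thus differ in their balance of long and short genes, and its part in the spread of the 9 genes was not tested. With this dependence on length removed, the ihhb change was 0.61 with GW9662 and 0.53 with rosiglitazone. At 1786 bases, ihhb is not among the 7 longer genes.

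**Figure D4:**
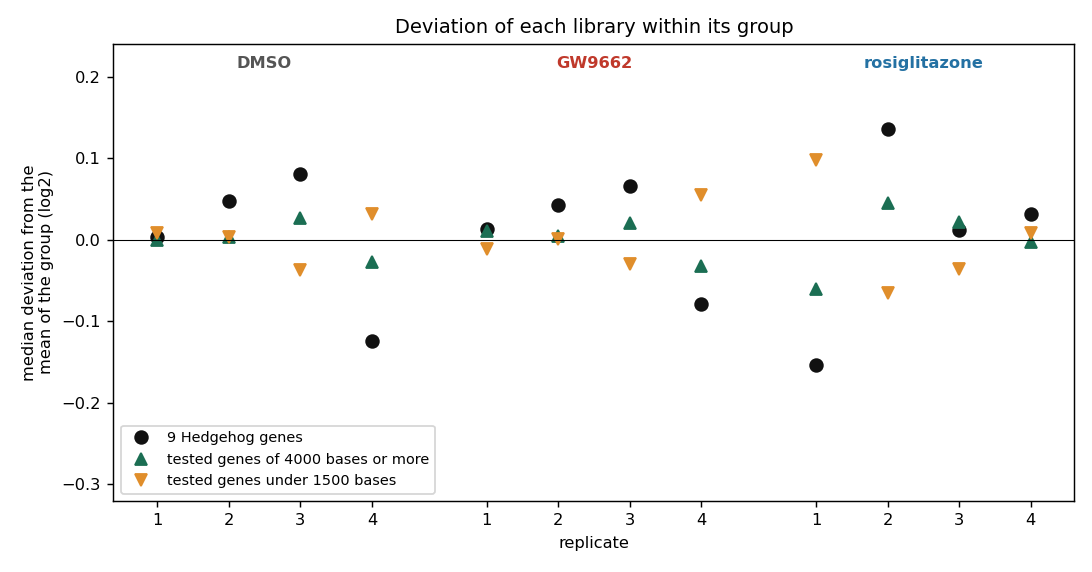
Median deviation of each library from the mean of its group (vertical axis, log2) for the 9 Hedgehog genes, for tested genes of 4000 bases or more and for tested genes under 1500 bases. The 9 genes are lowest in rosiglitazone replicate 1, at -0.15, and highest in rosiglitazone replicate 2, at 0.14, and the short genes deviate the other way in both.

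By the correlation of log2 levels over the 12 libraries, the genes most like ptch1 were fynb, coro7, cnot1, slc44a5b and ciz1a, with Pearson's r from 0.93 down to 0.887. For shha they were orc1, pdp2, kdm7ab, gpbp1l1 and rnf44, with r from 0.851 down to 0.827. These points share libraries and their length balance, and the values only describe the pattern.

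Other genes of the pathway were followed in lists. Among the genes for ligand release and processing, 2 of 7 tested were lower with GW9662 and none passed with rosiglitazone. That is 28.6% of the list with GW9662 and 0% with rosiglitazone, beside 36% and 17% of all genes. The 2 genes were hhatla, a relative of the acyltransferase that lipidates the ligand, which fell from 28.9 ± 0.545 to 13 ± 0.862 FPKM, and scube2, which helps to release the ligand, lower by a log2 of 0.15 ± 0.0469 (SE). The scube2 call was lost without DMSO replicate 2 or 3 or GW9662 replicate 1 (limma adjusted p from 0.0564 to 0.0737). The acyltransferase gene hhat itself, at 1.52 ± 0.469 FPKM in DMSO and 0.946 ± 0.345 in GW9662, did not pass (limma adjusted p = 0.0759), nor did scube3 (0.134).

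Of 7 co-receptor and ligand binding genes tested, 3 were higher and 1 was lower with GW9662, and 1 was higher with rosiglitazone. The glypican gpc4 rose from 41.8 ± 1.30 to 56.0 ± 1.83 FPKM with GW9662 (SD, n = 4; limma adjusted p = 3.58e-06) and was at 44.1 ± 1.31 in rosiglitazone. The co-receptor boc rose by a log2 of 0.14 with GW9662 (limma adjusted p = 0.0137), a call lost under library totals, quantile normalization and voom (0.107 to 0.165). The co-receptor gas1a rose by 0.19 with GW9662 and 0.23 with rosiglitazone. Its paralog gas1b fell by 0.22 with GW9662, so the gas1 pair went opposite ways. Shares called were 57.1% of this list with GW9662 and 14.3% with rosiglitazone, beside 36% and 17% of all genes.

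Of 20 cytoplasmic regulators of Gli proteins tested, 2 were higher and 2 lower with GW9662, and 1 was higher with rosiglitazone. A catalytic subunit of protein kinase A, the kinase that marks Gli proteins for cutting, rose with both compounds: prkacba went from 4.18 ± 0.322 FPKM to 8.07 ± 1.03 with GW9662 and 6.41 ± 0.876 with rosiglitazone (limma adjusted p = 3.23e-05 and 0.0031). Another subunit gene, prkacab, fell by a log2 of 0.29 with GW9662, as did spop, an adaptor for Gli degradation, by 0.23. The kinase gene gsk3aa rose by 0.26, a call lost without DMSO replicate 1, 2 or 4 or GW9662 replicate 1 or 3 (limma adjusted p from 0.0508 to 0.0765). Under library totals the gsk3aa call was lost as well (limma adjusted p = 0.0664). The inhibitor sufu was at 10.4 ± 0.306, 9.61 ± 0.211 and 10.7 ± 0.635 FPKM in DMSO, GW9662 and rosiglitazone and passed in neither compound; it was named after its values were seen. Shares called were 20% and 5%, beside 36% and 17% of all genes, and the list's median log2 change was 0.01 with GW9662 and 0.03 with rosiglitazone.

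Cilium genes, on which vertebrate Hedgehog signalling depends, showed no common direction. Of 33 tested, 3 were higher and 5 lower with GW9662, and 1 was higher with rosiglitazone. That gene was ift74, higher by a log2 of 0.22 with each compound and named after its values were seen. The transport gene ift81 rose by 0.52 with GW9662, while ift52 fell by 0.20, the ciliary membrane gene arl13b by 0.27 and the transition zone gene b9d2 by 0.42. Shares called were 24.2% and 3.03%, beside 36% and 17% of all genes.

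**Figure D5:**
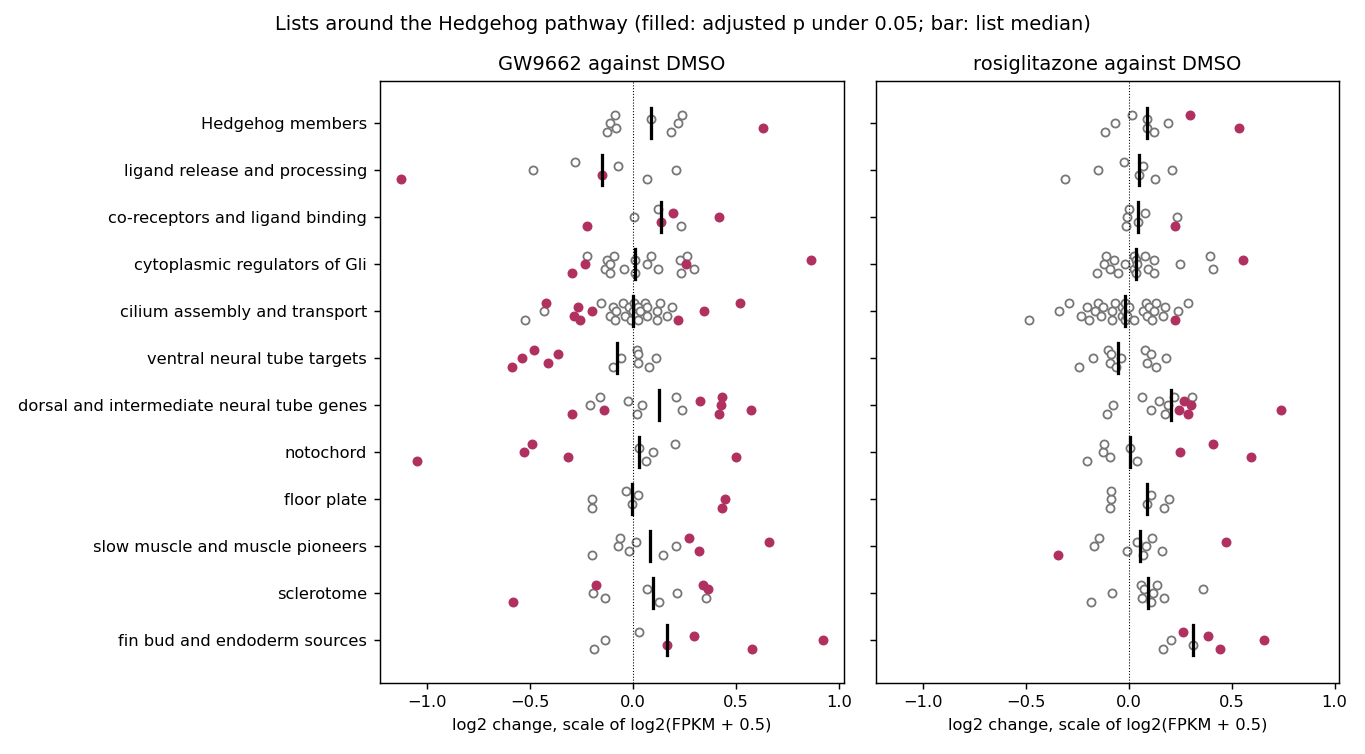
Log2 change (horizontal axis, on the log2(FPKM + 0.5) scale) of each tested gene in 12 lists around the Hedgehog pathway with GW9662 and with rosiglitazone, both against DMSO; filled points passed an adjusted p of 0.05 and the bar is the median of the list. The ventral neural tube list holds 5 filled points with GW9662, all below 0, and none with rosiglitazone.

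Genes that respond to the signal in the ventral neural tube were lower with GW9662 in 5 of 12 cases and higher in none, and none passed with rosiglitazone. Shares called were 41.7% and 0%, beside 36% and 17% of all genes. Over all genes tested, 17.1% were lower with GW9662. The progenitor factor nkx2.2a went from 5.24 ± 0.493 to 3.33 ± 0.471 FPKM (SD, n = 4; limma adjusted p = 0.000492) and was at 5.57 ± 0.509 in rosiglitazone. The hypothalamic factors nkx2.4b, nkx2.1 and nkx2.4a fell by a log2 of 0.54, 0.48 and 0.41. The motor neuron progenitor factor olig2, the remaining gene of the 5, fell by 0.36 and was named after its values were seen. Against rosiglitazone the same 5 genes were also lower, with nkx2.2a at -0.67 ± 0.100 (SE; limma adjusted p = 0.000248). In that comparison 30.5% of all genes tested were called, 14.5% being lower with GW9662. The list's median was -0.08 with GW9662, beside 0.01 over all genes tested. The factor nkx6.1 was at 23.5 ± 1.06 FPKM in DMSO and 23.9 ± 1.79 in GW9662, and nkx2.9 at 11.5 ± 0.674 and 11.1 ± 0.953. In the same order, foxa2 was at 12.9 ± 0.282 and 13.2 ± 1.27 FPKM and sim1a at 1.59 ± 0.131 and 1.77 ± 0.293 (SD, n = 4). For each of these genes the groups overlapped, and they were named after their values were seen.

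In the dorsal and intermediate neural tube, 5 of 14 genes were higher and 2 lower with GW9662, and 5 were higher and none lower with rosiglitazone. Shares called were 50% and 35.7%, beside 36% and 17% of all genes. Higher calls made up 18.9% and 9.29% of all genes tested. The dorsal factors msx1a and msx1b rose by a log2 of 0.43 and 0.43 with GW9662 and 0.74 and 0.30 with rosiglitazone. The growth factor gdf6a rose by 0.32 and 0.24, and wnt1, made at the dorsal midline and the midbrain-hindbrain boundary, by 0.57 with GW9662. The gdf6a call with rosiglitazone was lost without DMSO replicate 1, 2 or 3 or rosiglitazone replicate 1, 2 or 4 (limma adjusted p from 0.0548 to 0.101). It was also lost with no filter (limma adjusted p = 0.0514). The pax6b gene was at 8.58 ± 0.501, 6.90 ± 0.303 and 9.77 ± 0.663 FPKM in DMSO, GW9662 and rosiglitazone. In the same order, msx3 was at 36.7 ± 2.35, 36.1 ± 4.07 and 44.2 ± 1.05 FPKM (SD, n = 4). Both pax6b and msx3 were named after their values were seen.

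Slow muscle is the fibre type that depends on Hedgehog in the somite. Of 10 slow muscle and muscle pioneer genes tested, 3 were higher and none lower with GW9662, and 1 was higher and 1 lower with rosiglitazone. Shares called were 30% and 20%, beside 36% and 17% of all genes. The fate regulator prdm1a, which also acts in other tissues, went from 14.7 ± 0.398 FPKM to 23.7 ± 0.979 with GW9662 and 20.7 ± 0.752 with rosiglitazone (limma adjusted p = 1.58e-07 and 1.86e-05). The engrailed genes en1b and en2b, which mark muscle pioneers and the midbrain-hindbrain boundary, rose by a log2 of 0.32 and 0.27 with GW9662. For en2b the call was lost without DMSO replicate 3 or 4 or GW9662 replicate 4 (limma adjusted p from 0.0529 to 0.0767). It was also lost under quantile normalization (limma adjusted p = 0.073). The slow troponin tnnc1b fell by 0.35 with rosiglitazone and was at -0.20 with GW9662 (limma adjusted p = 0.0667). In DMSO, GW9662 and rosiglitazone myl10 was at 379 ± 9.98, 374 ± 13.5 and 338 ± 30.9 FPKM. In the same order, prox1a was at 6.26 ± 0.664, 5.96 ± 1.03 and 6.67 ± 0.915 FPKM (SD, n = 4). Both passed in neither compound and were named after their values were seen. The list summed to 572 to 606 FPKM in DMSO, 567 to 618 in GW9662 and 492 to 590 in rosiglitazone, so the groups overlapped. Abundant genes such as myl10 weigh most in this sum.

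Of 10 sclerotome genes tested, 2 were higher and 2 lower with GW9662 and none passed with rosiglitazone. The shares were 40% and 0%, beside 36% and 17% of all genes. The factor nkx3.2 fell by a log2 of 0.59 and foxc1a by 0.18, while twist1a and foxc1b rose by 0.37 and 0.34. The foxc1a call was lost without DMSO replicate 2, 3 or 4 or GW9662 replicate 1, 2 or 3 (limma adjusted p from 0.053 to 0.0952). It was also lost with no variance trend (limma adjusted p = 0.0508) and in the fit of 2 groups (0.0539). Of 7 fin bud and endoderm genes tested, 4 were higher with GW9662 and 4 with rosiglitazone, and none was lower. Shares called were 57.1% with each, beside 36% and 17% of all genes. The endoderm and heart factor gata6 went from 11.9 ± 0.812 FPKM to 23.0 ± 0.751 with GW9662 and 19.0 ± 0.487 with rosiglitazone (limma adjusted p = 2.73e-08 and 3.61e-06). The growth factor fgf8a rose by 0.58 and 0.44 and the endoderm factor foxa3 by 0.17 and 0.26, and hand2 rose by 0.38 with rosiglitazone. With GW9662 the foxa3 call was lost when any 1 of 9 libraries was left out, the exceptions being DMSO replicate 3, GW9662 replicate 3 and rosiglitazone replicate 1 (limma adjusted p from 0.0521 to 0.143). It was also lost under voom, quantile normalization, library totals, no filter, no variance trend, the length correction and the fit of 2 groups (limma adjusted p from 0.0561 to 0.17). Many genes of these lists are also expressed in tissues that neither give nor receive the Hedgehog signal.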

How the data were processed

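Whole-embryo RNA was sequenced in 12 libraries, grouped by their titles. HISAT2 2.0.5 and featureCounts 1.5.0-p3 are named in the submitters' processing notes. No source used here gives the genome build, and coordinates are those listed in the table. The deposited values are FPKM per gene and library, as computed by the authors. Multiplied by the listed gene length, 100% of values were whole multiples of 1 fragment (tolerance 0.001), which returned the fragments per gene. Fragments of near-identical or overlapping genes may not be told apart.

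Tests used limma 3.58.1 (R 4.3.3, data.table version 1.17.8) on log2(FPKM + 0.5), in a model of all 12 libraries with a trend in the prior variance, for the 14433 genes that reached 1 FPKM in 4 or more libraries. They were two-sided, with Benjamini-Hochberg adjustment over all genes tested in each of 3 comparisons. All 9 Hedgehog genes passed this filter under 1 ID each. The fit was tested on simulated data. Errors are SDs of 4 libraries (FPKM) or standard errors from the model (log2 changes).

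Members and lists were chosen with earlier results of these data known. Of 173 list entries, 164 were matched by symbol, ID or synonym. Each list names up to 4 genes with the smallest adjusted p in either comparison with DMSO, and 5 protein coding genes each were named for their likeness to ptch1 and shha. Alternatives were pseudocounts, filters, scalings, variance models, a fit of 2 groups, a replicate block, a length correction and leaving out each library. Figures used Python 3.11.15, matplotlib 3.10.9, pandas 2.3.3 and numpy 2.4.6.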

Additional observations from a re-analysis of the deposited data

How the results depend on the processing

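Over 24 alternatives the calls of ihhb held in all 23 that tested it with each compound, at a log2 of 0.56 to 0.71 with GW9662 and 0.47 to 0.62 with rosiglitazone. A stricter filter, a mean of 5 FPKM, left ihhb and 4 other genes untested, and gli2a was the gene it called with each compound. With GW9662, where 1 gene was called, 2 were called in the fit of 2 groups and 3 with the length trend removed. With rosiglitazone, where 2 were called, 1 was called under the stricter filter, under library totals and in the fit of 2 groups. Between the compounds, where none was called, 1 was called with the length trend removed, an alternative chosen after seeing the data. Leaving out each library gave 1 to 2 genes with GW9662, 1 to 2 with rosiglitazone and 0 to 1 between the compounds. The gene behind all of these changes was gli2a, except smo and gli3 with the length trend removed, ihhb under the stricter filter and gli3 without rosiglitazone replicate 1. Under library totals the gli2a change with rosiglitazone was 0.29 (limma adjusted p = 0.104). The cause was not tested.

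With the replicate number as a block, 2 genes were called with GW9662, gli2a joining at an adjusted p of 0.0477, and the other counts of Hedgehog genes were unchanged. With the block, hhip with GW9662 was at a limma adjusted p of 0.0767 and gli1 with rosiglitazone at 0.0864, beside 0.228 and 0.207 without it. Whether equal numbers pair libraries was not clear from the residuals. Same-numbered libraries correlated at -0.05 to 0.228 (GW9662 and DMSO), -0.01 to 0.0751 (rosiglitazone and DMSO) and 0.0377 to 0.199 (GW9662 and rosiglitazone). In the same order, the equal number gave the highest correlation for 2 of 4, 1 of 4 and 1 of 4 libraries.

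The sign changed in 19 cases, none of them called, and most came with a library left out. Over the libraries left out in turn, the log2 change of shha ran from -0.15 to 0.034 with GW9662, -0.17 to 0.039 with rosiglitazone and -0.12 to 0.10 between the compounds. With rosiglitazone that of shhb ran from -0.089 to 0.14 and that of ptch1 from -0.022 to 0.27. For smo between the compounds the range was -0.043 to 0.044. Under quantile normalization the difference between the compounds was 0.015 for shha and -0.060 for smo, and smo was at -0.0081 under library totals and -0.014 under limma voom. With voom, shhb was at -0.0013 with rosiglitazone. Of 1881 values for other named genes, none changed sign and 75 no longer passed. Against DMSO, those were values of foxa3, foxc1a, gsk3aa, en2b, scube2 and boc with GW9662 and of gdf6a with rosiglitazone.

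For shha, ptch1 and hhip, at 55 to 227 fragments per library, the 95% intervals against DMSO reached from -0.47 to 0.55 on the log2 scale. The ihhb gene, at 72 to 197 fragments, had a smaller standard error, and the part of depth in these intervals was not tested.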
